A study of Mus musculus with 12 samples.

Results

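The response of Nfat5-KO mpkCCD cells to hypertonic medium was taken, gene by gene, as the ratio of the value in Nfat5-KO_600 to the value in Nfat5-KO_300. Of 52015 genes with a value, 12982 had at least 0.5 FPKM (fragments per kilobase of transcript, scaled to the mapped fragments of a library) in at least 1 of these groups and were compared. Both groups together hold 8 of the 12 RNA-seq libraries of the series. The mpkCCD line comes from principal cells of the mouse cortical collecting duct. Nfat5-KO cells are mpkCCD cells in which Nfat5 was deleted by CRISPR/Cas9, and each Nfat5-KO group had 4 libraries, 2 from clone N1 and 2 from clone N3. Scr cells, mpkCCD cells that received a scramble guide RNA with no target, had 2 libraries per condition and are given beside the knockout cells. The groups Nfat5-KO_300 and Scr_300 were kept at 300 mosmol/kg, and Nfat5-KO_600 and Scr_600 at 600 mosmol/kg, reached with 100 mM NaCl and 100 mM urea, for 5 days. The knockout is represented by 2 clones, so that properties of the clones and the loss of NFAT5 cannot be told apart in a comparison with Scr cells, and the effects of NaCl and of urea cannot be told apart in any of them.

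Cells in hypertonic medium lose water to salt that stays outside, while urea crosses most cell membranes. NFAT5, also called TonEBP, is a transcription factor of the Rel family that becomes active when tonicity rises, and it is known for switching on genes for the uptake and synthesis of compatible organic osmolytes and for some heat shock proteins. In the kidney these genes are used most in the medulla, where collecting duct cells face a high and changing osmolality. The comparison within the knockout cells asks which responses run without this factor.

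The deposited values hold 1 FPKM value per gene and group and none per library, so that the ratios have no replicate check, and no SD, interval or p-value can be given. Depth per library is unknown. The way in which a group's libraries were combined is not given in the sources used here. Summed over all genes, FPKM came to 251080 at 300 and 212247 at 600 mosmol/kg in the knockout and to 253756 and 231932 in Scr cells. Ratios are log2 of (FPKM + 0.1), which understates the change of low genes, and single genes have a ratio only where both groups reached 0.1 FPKM. In the text below, rose and fell are used for a change of at least 2-fold on this scale. Nfat5 itself, which spans 107293470 to 107379517 on chromosome 8 (GRCm38), was at 3.47 FPKM at 300 and 6.88 FPKM at 600 mosmol/kg in the knockout and 5.61 and 7.93 FPKM in Scr cells. Its log2 ratio was 0.97 in the knockout and 0.49 in Scr cells. The mRNA of the targeted gene was thus present in the knockout groups, and its level does not check the loss of the protein.

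The label of a principal cell line was set against markers. Of 13 principal cell markers, 5 passed the filter in Nfat5-KO cells, and their summed level over all 13 was 69.6 FPKM at 300 and 100.4 FPKM at 600 mosmol/kg, beside 50.7 and 34.8 FPKM in Scr cells. Most of this sum was Tfcp2l1, a transcription factor of the collecting duct, at 48.9 and 53.4 FPKM in the knockout groups. Aqp2, the vasopressin-regulated water channel that defines the cell type, was near 0 with 0.0171 FPKM at 300 and 0.219 FPKM at 600 mosmol/kg in the knockout and 0 and 0.245 FPKM in Scr cells. Avpr2, the vasopressin receptor, had 0.0193 FPKM in Nfat5-KO_600 and was listed at 0 in Nfat5-KO_300. The 9 intercalated cell markers summed to 1.24 and 1.27 FPKM in the knockout groups, with 1 of 9 passing the filter. The 9 proximal tubule markers summed to 0.203 and 1.14 FPKM, nearly all from the endocytic receptor Lrp2 (0.168 and 1.07 FPKM), and the 12 stromal, endothelial and immune markers to 1.89 and 1.59 FPKM. In such bulk libraries a lower share of cells that express a gene and less RNA per cell cannot be told apart.

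Of the 12982 genes, 812 rose and 534 fell in Nfat5-KO cells, which is 6.25% and 4.11% of the genes compared (10.4% together) and is the background for the gene groups below. Groups are counted over the members that passed the filter, and a member that passed it only through its higher group had to differ. Of 12929 genes compared in Scr cells 622 rose (4.81%) and 370 fell (2.86%). Over all genes compared in Nfat5-KO cells the log2 ratio had a median of -0.04, its quartiles were -0.37 and 0.33, and 47.1% of the genes were higher at 600 mosmol/kg. Changes of at least 4-fold were found for 137 genes that rose and 66 that fell. Just inside the 2-fold limit lay Gm15884, with 0.543 and 1.19 FPKM, and Arvcf, with 37.2 and 18.6 FPKM, and just outside it lay Pltp, with 0.637 and 1.37 FPKM, and Bzw2, with 21.3 and 10.6 FPKM.

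The direction of the changes differed with the level of the gene. Among 1761 genes whose mean over the knockout groups was below 1 FPKM, 19.6% rose and 8.29% fell, and their median log2 ratio was 0.31. Among 335 genes whose mean reached 100 FPKM, 2 rose and 21 fell, the median was -0.48 and 11.9% were higher at 600 mosmol/kg. Between 30 and 100 FPKM the median was -0.25. From 10 FPKM upward, 84 of 4731 genes rose and 147 fell. For lists of abundant genes below, such as ribosomal proteins, the Hsp90 system, translation factors and proteasome subunits, the medians of these levels are the nearer background. The 2 abundant genes that rose were Gstm1, a glutathione S-transferase, from 94.3 to 355 FPKM, and Fam129b, from 32.6 to 190.2 FPKM. The fall of abundant transcripts was led by Tmem27 (collectrin), from 1244 to 306 FPKM, while Rplp1, a ribosomal stalk protein, was lower at 863 than at 1656 FPKM with a log2 ratio of -0.94. The plot of the ratio against the level shows both ends of this pattern.

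**Figure D1:**
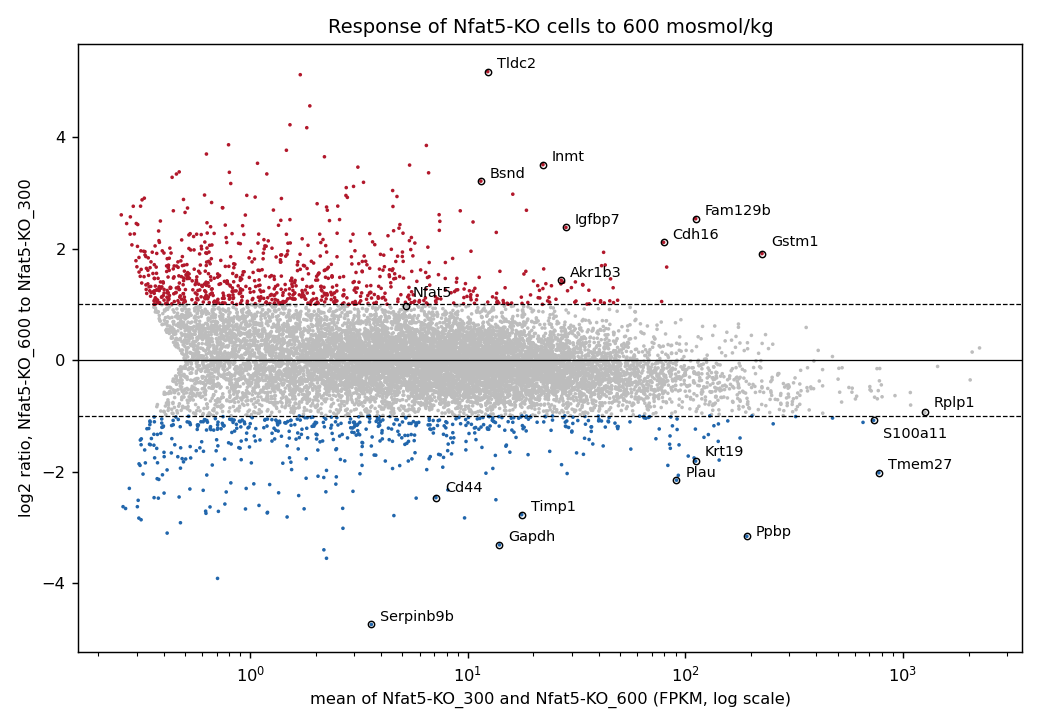
Log2 ratio of Nfat5-KO_600 to Nfat5-KO_300 (vertical axis) against the mean FPKM of these groups (horizontal axis, log scale) for 12982 genes, 1 point per gene, with 812 genes at least 2-fold higher in red, 534 at least 2-fold lower in blue and dashed lines at 2-fold. Red points crowd the low levels at the left, and above 100 FPKM 2 genes are red and 21 are blue.

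Among genes with at least 5 FPKM in the higher group, the 15 highest log2 ratios in Nfat5-KO cells lay between 2.76 and 5.18. Tldc2, a gene of the TLDc domain family, led them with 0.567 FPKM at 300 and 24.1 FPKM at 600 mosmol/kg in the knockout and 0.236 and 19.5 FPKM in Scr cells. Both groups at 600 mosmol/kg were far above both groups at 300 mosmol/kg for this gene, and the log2 ratio was 5.18 in the knockout and 5.87 in Scr cells. Inmt, a methyltransferase of indolethylamines and selenium compounds, had 3.49 FPKM at 300 and 40.8 FPKM at 600 mosmol/kg in the knockout and 7.54 and 249 FPKM in Scr cells, and here the level reached in Scr_600 was several times that in Nfat5-KO_600. Bsnd, the barttin subunit of kidney chloride channels, had 2.15 FPKM at 300 and 20.8 FPKM at 600 mosmol/kg in the knockout and 0.743 and 22.1 FPKM in Scr cells. Its levels at 600 mosmol/kg were close in the genotypes.

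Fam105a rose from 0.746 to 12.1 FPKM, and Lta, the cytokine lymphotoxin alpha, from 1.09 to 7.95 FPKM. Papln, an extracellular matrix protein, rose from 0.572 to 6.05 FPKM, Ypel2 from 0.536 to 5.42 FPKM, and the noncoding 2610203C20Rik from 1.09 to 12.1 FPKM. Others of the 15 were Gm25535, annotated as a miRNA gene, Gm28727 and the histone gene Hist1h4k, from 0.434 to 5.8 FPKM. Of the 15 genes, 12 were also past 2-fold in the same direction in Scr cells. Those that were not were the histone gene Hist2h3c2, from 1.01 to 8.42 FPKM in the knockout and from 1.07 to 1.69 FPKM in Scr cells, Gstt1 and Cbs. Cbs, the enzyme that starts transsulfuration from homocysteine to cysteine, rose from 0.498 to 5.02 FPKM in the knockout and fell from 1.46 to 0.281 FPKM in Scr cells. Gstt1, a glutathione S-transferase, rose from 0.574 to 5.01 FPKM in Nfat5-KO cells, and its level in Scr cells went from 4.29 to 2.49 FPKM, a log2 ratio of -0.76.

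**Figure D2:**
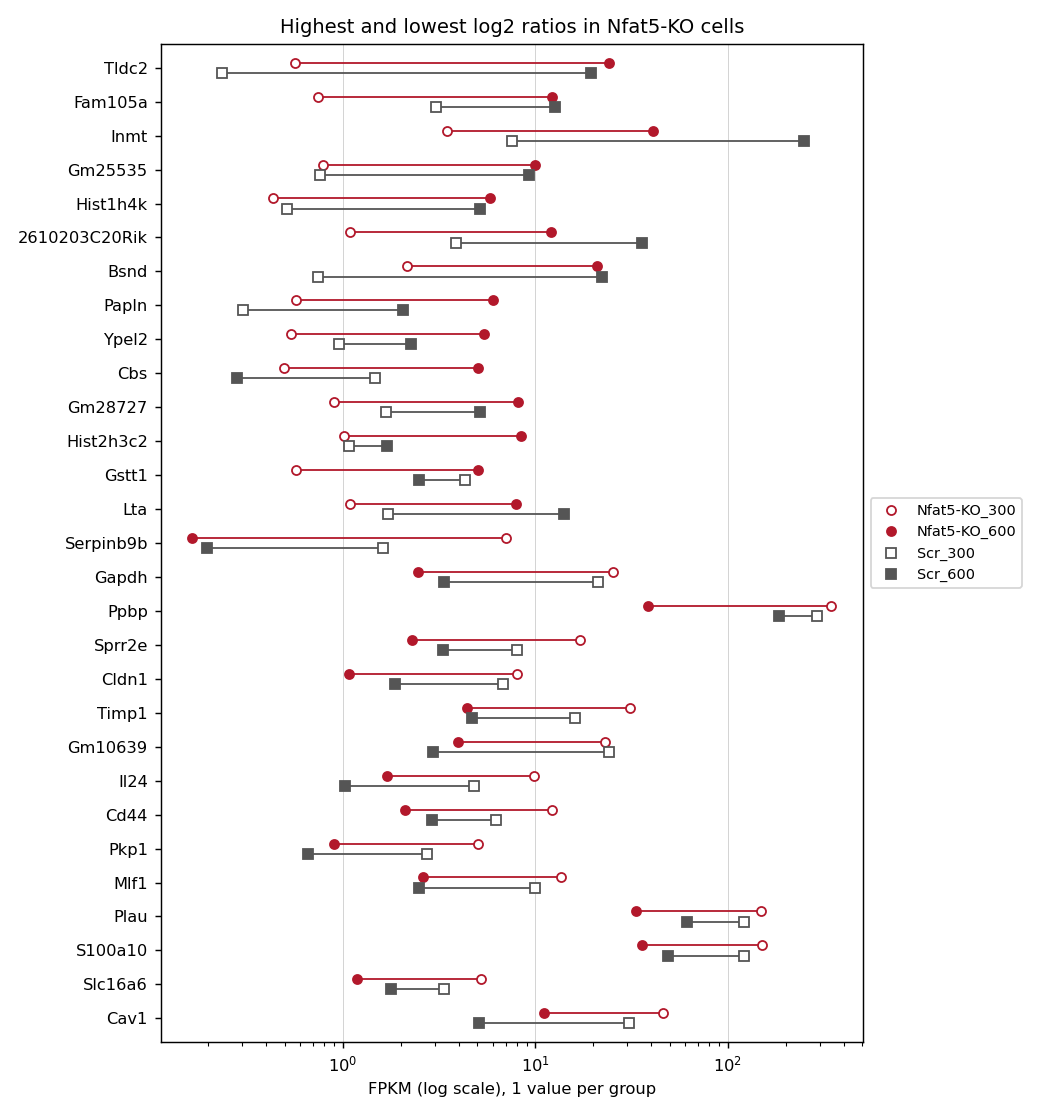
FPKM (horizontal axis, log scale, 1 value per group) of 14 of the 15 genes with the highest and of the 15 with the lowest log2 ratio in Nfat5-KO cells, with open symbols for 300 and filled symbols for 600 mosmol/kg, red circles for Nfat5-KO and grey squares for Scr. For 11 of the upper 14 and 12 of the lower 15 genes the grey pair moves at least 2-fold the same way as the red pair, while for Cbs and Gstt1 it moves the other way.

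The 250 bases before the start of 4 of the genes at the ends of the range are printed to show the promoters of responses that occurred in the knockout cells, from RefSeq for GRCm38.p6, 5′ to 3′ on the strand of the gene. Capitals mark matches on either strand to TGGAAA, the core of the tonicity-responsive element that NFAT5 binds, to TGANTCA, the AP-1 element, and to TATAAA, the TATA box. Tldc2 (chr2:157086760-157087009, plus strand) and Inmt (chr6:55174991-55175240, minus strand) rose, and Ppbp (chr5:90768268-90768517, plus strand) and Sprr2e (chr3:92351893-92352142, plus strand) fell:
Tldc2: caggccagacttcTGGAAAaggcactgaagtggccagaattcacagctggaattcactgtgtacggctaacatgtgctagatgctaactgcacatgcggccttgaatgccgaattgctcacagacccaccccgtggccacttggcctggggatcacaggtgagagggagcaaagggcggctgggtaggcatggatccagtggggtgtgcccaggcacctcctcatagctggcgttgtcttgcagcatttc
Inmt: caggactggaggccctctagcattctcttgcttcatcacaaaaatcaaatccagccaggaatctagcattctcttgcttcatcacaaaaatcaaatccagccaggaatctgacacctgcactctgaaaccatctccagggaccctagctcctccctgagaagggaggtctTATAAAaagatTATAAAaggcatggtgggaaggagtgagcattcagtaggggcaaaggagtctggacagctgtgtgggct
Ppbp: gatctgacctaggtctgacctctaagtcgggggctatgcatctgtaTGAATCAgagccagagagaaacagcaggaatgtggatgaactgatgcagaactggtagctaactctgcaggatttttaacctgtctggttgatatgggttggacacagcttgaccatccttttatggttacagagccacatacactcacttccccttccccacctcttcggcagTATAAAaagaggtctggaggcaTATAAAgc
Sprr2e: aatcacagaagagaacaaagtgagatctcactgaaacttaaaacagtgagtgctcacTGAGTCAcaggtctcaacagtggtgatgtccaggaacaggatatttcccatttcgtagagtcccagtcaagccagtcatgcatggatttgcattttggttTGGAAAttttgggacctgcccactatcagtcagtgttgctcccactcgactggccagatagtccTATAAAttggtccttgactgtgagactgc
Tldc2 has TGGAAA starting at -237, where -1 is the base before the start, while Inmt has TATAAA at -80 and -69 and neither of the other elements. Ppbp has an AP-1 match at -204 and TATAAA at -30 and -8. Sprr2e has an AP-1 match at -193, TGGAAA at -93 and TATAAA at -29. A match is a match of letters and not a bound site. The 4 printed promoters all hold matches and do not stand for the others. Promoters were found for 18 of the 31 genes made up of both ends of the range and Nfat5. Those of Papln, Ypel2, Cbs, Gstt1, Serpinb9b, Gapdh, Cldn1, Timp1, Gm10639, Cd44 and Nfat5 held no match to any of these elements.

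The 15 lowest log2 ratios, among genes with at least 5 FPKM in the higher group, lay between -4.75 and -2.04. Serpinb9b, an intracellular inhibitor of serine proteases, had 7.03 FPKM at 300 and 0.166 FPKM at 600 mosmol/kg in the knockout and 1.61 and 0.197 FPKM in Scr cells. Ppbp, the chemokine CXCL7, had 345 FPKM at 300 and 38.4 FPKM at 600 mosmol/kg in the knockout and 289 and 184 FPKM in Scr cells, and its log2 ratio of -3.16 in Nfat5-KO cells stood beside -0.65 in Scr cells. Sprr2e, a small proline-rich protein of the cornified envelope, had 17 FPKM at 300 and 2.3 FPKM at 600 mosmol/kg in the knockout and 8.01 and 3.33 FPKM in Scr cells. For Ppbp the level of Nfat5-KO_600 was the lowest of the 4 groups by a wide margin, while for Sprr2e the groups at 600 mosmol/kg lay close together.

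Cldn1, a tight junction protein, fell from 8.06 to 1.08 FPKM in Nfat5-KO cells, and Timp1, an inhibitor of metalloproteinases, from 30.9 to 4.43 FPKM. Cd44, the hyaluronan receptor, fell from 12.1 to 2.11 FPKM, Plau, the urokinase plasminogen activator, from 149 to 33.3 FPKM, and S100a10, the partner of annexin A2, from 149.7 to 35.6 FPKM. Cav1, the main protein of caveolae, had 46 FPKM at 300 and 11.1 FPKM at 600 mosmol/kg in the knockout and 30.8 and 5.08 FPKM in Scr cells, and its log2 ratio of -2.04 in Nfat5-KO cells stood beside -2.58 in Scr cells. The cytokine Il24 fell from 9.87 to 1.69 FPKM, the desmosomal protein Pkp1 from 5.02 to 0.901 FPKM, the monocarboxylate transporter Slc16a6 from 5.19 to 1.19 FPKM, Mlf1 from 13.6 to 2.62 FPKM and Gm10639 from 22.9 to 3.95 FPKM. All 15 were lower at 600 mosmol/kg in Scr cells as well, 12 of them by at least 2-fold. Gapdh, a glycolytic enzyme, fell from 25.5 to 2.46 FPKM in the knockout and from 21.2 to 3.36 FPKM in Scr cells, but it shares reads with many near-identical pseudogenes and its level here is uncertain.

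Some genes of organic osmolytes rose in the knockout cells. Of the 16 genes in the list, 13 passed the filter, 5 rose and none fell, with a median log2 ratio of 0.27. Akr1b3, aldose reductase, which makes sorbitol from glucose, had 14.5 FPKM at 300 and 39.2 FPKM at 600 mosmol/kg in the knockout and 23.8 and 175 FPKM in Scr cells. It rose in both genotypes, and the value in Scr_600 was above that in Nfat5-KO_600 by several-fold. Slc6a6, the taurine transporter, had 12.7 FPKM at 300 and 33 FPKM at 600 mosmol/kg in the knockout and 18.3 and 33.7 FPKM in Scr cells, and the groups at 600 mosmol/kg reached nearly the same level. Chdh, choline dehydrogenase, which starts betaine synthesis, had 0.622 FPKM at 300 and 4 FPKM at 600 mosmol/kg in the knockout and 2.38 and 19.3 FPKM in Scr cells. Its log2 ratio was 2.51 in the knockout and 2.97 in Scr cells, from a lower start in the knockout. Pnpla6, which releases glycerophosphocholine from membrane lipid, rose from 3.41 to 7.81 FPKM in Nfat5-KO cells. Sord, sorbitol dehydrogenase, which turns sorbitol into fructose, rose from 0.67 to 1.56 FPKM in the knockout and fell from 1.39 to 0.485 FPKM in Scr cells.

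The other 8 osmolyte genes that passed the filter stayed below 2-fold in Nfat5-KO cells. Slc5a3, the inositol transporter, had 1.87 FPKM at 300 and 2.27 FPKM at 600 mosmol/kg in the knockout and 2.12 and 4.69 FPKM in Scr cells, and its log2 ratio was 0.27 beside 1.11 in Scr cells. Slc6a12, the betaine transporter, did not pass the filter in the knockout. It was listed at 0 in Nfat5-KO_300 and at 0.135 FPKM in Nfat5-KO_600, and it went from 0.00512 to 2.1 FPKM in Scr cells. It reached more than 1 FPKM in Scr_600 alone. Slc38a2, a neutral amino acid transporter, had a log2 ratio of 0.54 in the knockout and 0.34 in Scr cells, and Isyna1, which makes inositol phosphate, -0.43 and 0.37. The FPKM of the whole list summed to 176 at 300 and 224 at 600 mosmol/kg in the knockout and to 226 and 439.5 in Scr cells, so that the knockout cells at 600 mosmol/kg were close to the sum of Scr cells at 300 mosmol/kg.

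**Figure D3:**
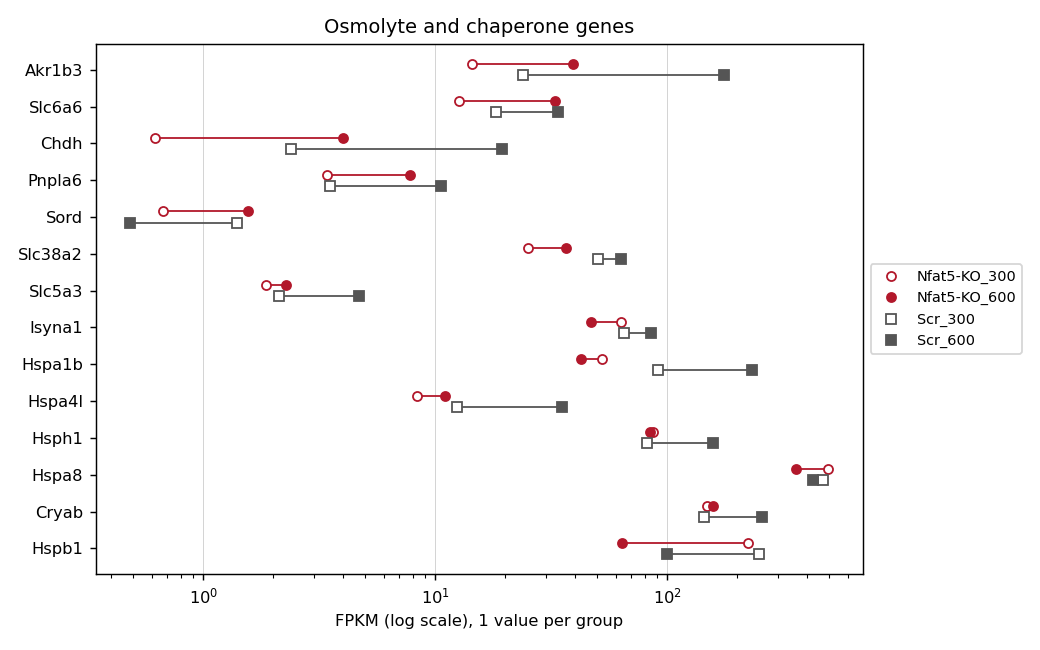
FPKM (horizontal axis, log scale, 1 value per group) of osmolyte genes and chaperones, with open symbols for 300 and filled symbols for 600 mosmol/kg, red circles for Nfat5-KO and grey squares for Scr. Akr1b3, Slc6a6, Chdh, Pnpla6 and Sord move at least 2-fold to the right in red, and Hspa1b moves to the left in red and to the right in grey.

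Among the cytosolic chaperones of Nfat5-KO cells a single small heat shock protein rose. None of the 10 Hsp70 and Hsp110 genes compared rose or fell, and their median log2 ratio was -0.15, beside 0.06 for the same 10 genes in Scr cells. In Scr cells 3 of 11 compared rose. Hspa1b, an inducible Hsp70, had 52.3 FPKM at 300 and 42.5 FPKM at 600 mosmol/kg in the knockout and 91.1 and 231 FPKM in Scr cells, although it shares reads with its near-identical copy Hspa1a. Hspa4l, an Hsp110 protein known as osmotic stress protein 94, had 8.33 FPKM at 300 and 11 FPKM at 600 mosmol/kg in the knockout and 12.4 and 35 FPKM in Scr cells, and Hsph1, also of the Hsp110 group, 86.6 FPKM at 300 and 84.2 FPKM at 600 mosmol/kg in the knockout and 81.7 and 158 FPKM in Scr cells. Hspa8, the constitutive Hsc70, went from 495 to 359 FPKM in the knockout.

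The Hsp90 system and the chaperonin ring were lower, with 19 of 20 genes below 0, a median of -0.54 and none past 2-fold. Hsp90ab1, the constitutive Hsp90, went from 849 to 579 FPKM in the knockout. Of 7 genes compared in the list of small heat shock proteins, 1 rose and 2 fell. Hspb9 rose from 0.844 to 3.06 FPKM, and Hspb11, counted here by its symbol only, fell from 2.41 to 0.837 FPKM. Hspb1, which binds unfolding proteins and actin, fell from 222 to 63.9 FPKM in the knockout and from 249 to 99.3 FPKM in Scr cells. Cryab, alpha-B crystallin, had 149 FPKM at 300 and 157 FPKM at 600 mosmol/kg in the knockout and 144 and 256 FPKM in Scr cells, so that its highest level was in Scr_600 and the others lay close together. Of 14 J-domain co-chaperones, 10 were lower and none changed 2-fold. Of 15 heat shock and stress transcription factors, 8 were higher and none changed 2-fold.

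Genes for making ribosomes were lower in the hypertonic knockout cells. Of 83 cytosolic ribosomal protein genes, 81 were lower, 3 fell and none rose, and their FPKM summed to 27258 at 300 and 16976 at 600 mosmol/kg. The 3 that fell were Rps2, from 896 to 413 FPKM, Rps27a, from 183 to 72.2 FPKM, and Rpl36, from 638 to 310.4 FPKM, and ribosomal protein genes share reads with many pseudogenes. In Scr cells the sum went from 29169 to 19442, and the median log2 ratio of -0.57 stood beside -0.64 in Nfat5-KO cells. For the 45 ribosome biogenesis factors the genotypes lay further apart, with a median of -0.75 in the knockout and -0.15 in Scr cells. The Nfat5-KO ratio was below the Scr ratio for 44 of these 45 genes, and 9 of 45 fell in Nfat5-KO cells. Here and in the lists below, the share of all genes with the lower ratio in the knockout is not given. Such counts therefore lack a background and are not read as particular to a list. The ratio was also lower in the knockout for 39 of 45 translation factors and 61 of 76 mitochondrial ribosomal proteins, but for 13 of 42 lysosome, V-ATPase and autophagy genes. Ncl, nucleolin, fell from 156 to 66.1 FPKM, Mrto4, a factor of the large subunit, from 24.1 to 9.16 FPKM, and Gar1, of the pseudouridylation particle, from 41.8 to 18.9 FPKM. With a median-of-ratios factor between the groups 5 of the 9 stayed past 2-fold, and Nop16, Rcl1, Ebna1bp2 and Mybbp1a did not.

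Translation factors were lower, mostly by less than 2-fold. Of 45 initiation and elongation factors, 44 were lower, with a median of -0.48, and Eif2b3, a subunit of the exchange factor eIF2B, fell from 4.32 to 1.86 FPKM. Eef1a1, the factor that brings tRNAs to the ribosome, went from 2285 to 1787 FPKM in the knockout, and Eef2, the translocation factor, from 799 to 719 FPKM. Of 19 aminoacyl-tRNA synthetases, 18 were lower, with a median of -0.45 beside -0.05 in Scr cells. Of 28 genes of RNA polymerases I and III, 22 were lower, 1 rose and 1 fell. Polr3g, a polymerase III subunit of growing cells, fell from 4.6 to 1.76 FPKM, and Znrd1, a polymerase I subunit, rose from 18.9 to 48.5 FPKM. Among 76 mitochondrial ribosomal proteins 64 were lower, with a median of -0.37, and none changed 2-fold.

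Genes of respiration were lower by less than ribosomal proteins and translation factors, as judged by their medians. Of 75 nuclear genes of oxidative phosphorylation, 63 were lower and none changed 2-fold, with a median of -0.23 in the knockout and -0.21 in Scr cells. The median of all genes with a mean of 30 to 100 FPKM was -0.25 in the knockout. The share of these 75 genes in all FPKM was 2.51% at 300 and 2.57% at 600 mosmol/kg in the knockout. The 13 genes of the mitochondrial genome had a median of -0.11 and their share of all FPKM was 2.53% at 300 and 2.7% at 600 mosmol/kg. Within them mt-Co1, a cytochrome oxidase subunit, went from 1974 to 2184 FPKM in the knockout.

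Spliceosome proteins were lower and some regulators of splicing were higher. All 43 snRNP and core spliceosome genes compared were below 0 in Nfat5-KO cells, with a median of -0.42, where 33 of 43 were below 0 in Scr cells with a median of -0.14. Snrpf, a core protein of the snRNPs, fell from 49.9 to 18.8 FPKM. Of 36 SR proteins and hnRNPs, 34 were lower and none changed 2-fold. In contrast, 17 of 24 CLK and DYRK kinases and splicing regulators were higher, and 2 rose. These were Dyrk1b, a kinase linked to cell cycle exit, from 1.86 to 5.98 FPKM, and Rsrp1, an arginine and serine rich protein, from 15 to 31.5 FPKM. Malat1, a long noncoding RNA of nuclear speckles, had 26.8 FPKM at 300 and 66.2 FPKM at 600 mosmol/kg in the knockout and 45 and 68.7 FPKM in Scr cells, and its log2 ratio was 1.30, beside 0.61 in Scr cells. Of 39 nucleoporins, karyopherins and Ran genes, 34 were lower, with a median of -0.29.

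Proteasome subunits moved together. All 32 compared were lower in Nfat5-KO cells, between -0.85 and -0.21, with a median of -0.50, and none reached 2-fold. In Scr cells 28 of 32 were lower with a median of -0.21, and the Nfat5-KO ratio was below the Scr ratio for 31 of 32. Lysosome, V-ATPase and autophagy genes did not follow them, since 22 of 42 were higher, the median was 0.03 and none changed 2-fold. Of 21 genes of ER chaperones and ER stress, 17 were lower with none past 2-fold, and Hspa5, the BiP chaperone, went from 143 to 94 FPKM in the knockout.

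Amino acid stress genes were lower. The 21 ATF4 targets and serine synthesis genes had a median of -0.51 in the knockout and -0.04 in Scr cells, and 2 fell and none rose. Asns, asparagine synthetase, fell from 52.6 to 19.5 FPKM in Nfat5-KO cells, and Pycr1, an enzyme of proline synthesis, from 4.1 to 1.49 FPKM. Of 13 metallothionein and zinc transport genes 1 fell, Mt1, a metal-binding protein, from 16.1 to 6.92 FPKM in the knockout and from 36.7 to 15.9 FPKM in Scr cells.

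Genes of glutathione use and of p53 were mixed. Of 21 genes of NRF2, glutathione and thioredoxin, 14 were higher and 2 rose. Gclc, the subunit that limits glutathione synthesis, had 17.2 FPKM at 300 and 42.6 FPKM at 600 mosmol/kg in the knockout and 13.6 and 16.3 FPKM in Scr cells, and Gstm1 had 94.3 FPKM at 300 and 355 FPKM at 600 mosmol/kg in the knockout and 91.3 and 172 FPKM in Scr cells. Both were highest in Nfat5-KO_600, and Gstm1 shares reads with related Gstm genes. Nqo1, a quinone reductase and common NRF2 target, had a log2 ratio of 0.78 in the knockout and 2.39 in Scr cells. Among 25 p53 targets 2 rose and 2 fell. Trp53inp1, which promotes p53 activity and autophagy, had 1.45 FPKM at 300 and 7.66 FPKM at 600 mosmol/kg in the knockout and 1.4 and 1.23 FPKM in Scr cells, and was high in Nfat5-KO_600 alone. Mdm2, the ubiquitin ligase of p53, rose from 14.6 to 29.4 FPKM in Nfat5-KO cells with a log2 ratio of 1.00 beside 0.18 in Scr cells. The Nfat5-KO ratio was above the Scr ratio for 17 of the 25. Plk2, a stress-responsive kinase, fell from 68.5 to 29.2 FPKM, and Rrm2b, a ribonucleotide reductase subunit, from 4.22 to 1.78 FPKM.

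Genes of proliferation were lower, mostly by less than 2-fold. Of 38 DNA replication genes 32 were lower, with a median of -0.29, and 1 fell. Of 32 mitosis genes 24 were lower with a median of -0.26, beside -0.30 in Scr cells, and none changed 2-fold. Both medians lay near that of all genes with a mean of 30 to 100 FPKM, which was -0.25 with 26.4% higher. For a mean of 10 to 30 FPKM it was -0.08. The part of the level in these medians was not tested. Of 22 antiproliferative and quiescence genes 13 were higher, 1 rose and 2 fell. Btg1, an antiproliferative factor, rose from 16.2 to 34.6 FPKM, and Klf4, a transcription factor of differentiated epithelium, fell from 12.5 to 4.7 FPKM. Ccnd1, cyclin D1, which drives entry into S phase, had 124 FPKM at 300 and 59.4 FPKM at 600 mosmol/kg in the knockout and 99.3 and 52.1 FPKM in Scr cells and fell in the knockout, although with a median-of-ratios factor it was just under 2-fold. Of 25 genes of cell death 1 rose: Bmf, a BH3-only protein that promotes apoptosis, had 0.532 FPKM at 300 and 3.98 FPKM at 600 mosmol/kg in the knockout and 0.404 and 2.4 FPKM in Scr cells, and rose in both genotypes. Bcl2l11, the BH3-only protein BIM, had a log2 ratio of 0.98 in the knockout and 0.22 in Scr cells.

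Glycolysis genes were mostly lower in Nfat5-KO cells. Of 24 genes compared 6 fell and 1 rose, with a median of -0.51 beside -0.34 in Scr cells. Ldha, lactate dehydrogenase, had 258 FPKM at 300 and 98 FPKM at 600 mosmol/kg in the knockout and 356 and 283 FPKM in Scr cells, and its log2 ratio was -1.40 in the knockout and -0.33 in Scr cells. The others that fell were Gapdh, Pfkp, the platelet phosphofructokinase, from 5.44 to 2.48 FPKM, Tpi1, triose phosphate isomerase, from 269.6 to 135 FPKM, Slc16a1, a lactate transporter, from 59.9 to 29.2 FPKM, and Pdk1, from 7.64 to 2.61 FPKM. Tpi1 and Slc16a1 were under 2-fold with a median-of-ratios factor, and Pfkp with a pseudocount of 1. Pdk2, which like Pdk1 holds back pyruvate dehydrogenase, rose from 2.17 to 5.6 FPKM. Of 19 other hypoxia response genes 4 fell: Egln3, an oxygen sensor, from 8.61 to 2.45 FPKM, Bnip3, a mitophagy receptor, from 20.5 to 6.2 FPKM, Ankrd37, from 5.31 to 2.49 FPKM, and the clock-linked repressor Bhlhe40, from 9.92 to 3.95 FPKM.

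Most genes of the cholesterol pathway were lower in the knockout and higher in Scr cells, with none past 2-fold. Of 25 genes of cholesterol synthesis and uptake, 21 were lower in the knockout and 20 were higher in Scr cells, the medians were -0.47 and 0.15, and the Nfat5-KO ratio was below the Scr ratio for 23 of 25. Mvk, mevalonate kinase, had a log2 ratio of -0.80 in the knockout and 0.15 in Scr cells, Idi1, isopentenyl diphosphate isomerase, -0.86 and -0.03, and Stard4, a sterol carrier, -0.97 and -0.13. Srebf2, the transcription factor of the pathway, had -0.62 and -0.06. Fatty acid genes had a median of -0.03 over 23 genes, and Acacb, a carboxylase that makes malonyl-CoA, rose from 0.535 to 1.3 FPKM. Of 12 polyamine genes 3 fell and 1 rose. Odc1, ornithine decarboxylase, which makes putrescine, had 207 FPKM at 300 and 75.4 FPKM at 600 mosmol/kg in the knockout and 139 and 75 FPKM in Scr cells, Srm, spermidine synthase, fell from 56 to 26.2 FPKM, and Sms, spermine synthase, from 9.11 to 4.01 FPKM. Arg2, the arginase that supplies ornithine, rose from 0.807 to 3.01 FPKM. Of 25 genes of nucleotide and folate metabolism 22 were lower and 2 fell, Atic, of purine synthesis, from 28.5 to 13.1 FPKM, and Nme2, a nucleoside diphosphate kinase, from 1.3 to 0.509 FPKM.

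Some water channel genes rose in the knockout, from low levels. Of 18 genes of aquaporins and the vasopressin pathway compared, 3 rose and 2 fell. Aqp1, a constitutive water channel, had 0.653 FPKM at 300 and 3.51 FPKM at 600 mosmol/kg in the knockout and 23.6 and 318 FPKM in Scr cells. It rose in both genotypes, and Nfat5-KO_600 was below even Scr_300. Aqp5 rose from 1.57 to 4.96 FPKM and Aqp6, an intracellular channel of intercalated cells, from 0.101 to 3.53 FPKM. Pde4b, a cAMP phosphodiesterase, and Akap7, an anchor of protein kinase A, fell from 0.728 to 0.312 FPKM and from 3.4 to 1.52 FPKM.

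Genes of ENaC and corticosteroid signalling were mostly higher in Nfat5-KO cells. Of 15 genes of ENaC and corticosteroid signalling 12 were higher and 1 rose, with a median of 0.41 beside 0.00 in Scr cells. The gene that rose was Hsd11b2, which protects the mineralocorticoid receptor from glucocorticoids, from 1.95 to 6.18 FPKM. Scnn1a, the alpha subunit of ENaC, had 3.56 FPKM at 300 and 7.03 FPKM at 600 mosmol/kg in the knockout and 2.95 and 1.31 FPKM in Scr cells, and it was higher in the knockout and lower in Scr cells at 600 mosmol/kg. Sgk1, the kinase that keeps ENaC at the surface, had 0.444 FPKM at 300 and 0.513 FPKM at 600 mosmol/kg in the knockout and 0.262 and 4.28 FPKM in Scr cells, and was above 1 FPKM in Scr_600 alone. Of 11 genes of the sodium pump, FXYD proteins and Kir channels 3 rose and none fell, with a median of 0.50. Over the 9 genes compared in both genotypes the medians were 0.20 in the knockout and 0.71 in Scr cells. Fxyd2, the gamma subunit of the sodium pump, rose from 0.00955 to 0.552 FPKM, Kcnj16, a potassium channel subunit, from 0.0143 to 0.526 FPKM, and the pump subunit Atp1b2 from 0.153 to 0.531 FPKM. All 3 passed the filter through Nfat5-KO_600 alone, and none of the list was past 2-fold with a pseudocount of 1 or with a mean of at least 1 FPKM, where the median was 0.35 and 0.08. Of 21 genes of volume-regulated channels, WNK kinases and cation-chloride cotransport 14 were higher, 1 rose and none fell. Of 17 amino acid transporters none changed 2-fold.

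Epithelial junction, keratin and injury genes were lower. Of 18 keratins, vimentin and desmosome genes 6 fell and none rose. Krt19, a simple epithelial keratin, fell from 173 to 49.3 FPKM, Krt20 from 42.6 to 17.5 FPKM, Krt80 from 12.1 to 4.18 FPKM and Krt14, a keratin of basal cells, from 1.36 to 0.184 FPKM. Dsc2, a desmosomal cadherin, fell from 19.4 to 8.47 FPKM, and the sixth was Pkp1, given above. Of 17 claudin and tight junction genes 2 fell, Cldn1 and Cldn3, the latter from 106 to 45.1 FPKM, and 1 rose, Cldn8, a claudin of the collecting duct, from 3.71 to 10.9 FPKM. Of 19 markers of tubular injury and repair 8 fell and none rose, with a median of -0.75, which was -0.44 with a pseudocount of 1. Over the 18 genes compared in both genotypes the medians were -0.77 in the knockout and -0.19 in Scr cells. Anxa1, a lipid-binding protein of inflammation control, had 128 FPKM at 300 and 42.6 FPKM at 600 mosmol/kg in the knockout and 242 and 275 FPKM in Scr cells. It fell in the knockout and had a Scr log2 ratio of 0.19. S100a11 fell from 995 to 470.3 FPKM, and with Timp1, Cd44 and S100a10 it was among the genes that made up the fall of this list from 1.03% to 0.697% of all FPKM.

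Some adhesion and kidney identity genes rose. Of 23 collagens, laminins and integrins 4 rose and none fell, among them Itgb5, an integrin subunit, from 31.4 to 66.2 FPKM, and Itgb6, from 1.92 to 6.35 FPKM. Of 22 caveolins and targets of YAP and SRF 17 were lower and 2 fell, Cav1 and Tpm1, tropomyosin, from 82.2 to 40.9 FPKM. Of 17 kidney epithelial transcription factors 4 rose and none fell. Pax2, which builds the nephric lineage, had 2.23 FPKM at 300 and 7.85 FPKM at 600 mosmol/kg in the knockout and 6.59 and 43.7 FPKM in Scr cells, and Gata3, needed for the collecting duct, 11.8 FPKM at 300 and 30 FPKM at 600 mosmol/kg in the knockout and 3.41 and 4.33 FPKM in Scr cells. Pax2 was highest in Scr_600 and Gata3 in Nfat5-KO_600. Foxa1 rose from 8.07 to 17.9 FPKM and Sim1 from 0.769 to 2 FPKM.

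Genes of growth factor signalling moved in both directions. Of 22 AP-1, EGR and MYC factors 2 rose and 3 fell. Fosl1, the AP-1 partner FRA1, fell from 11.5 to 3.46 FPKM, Maff from 10.8 to 4.73 FPKM and Ier3 from 91.6 to 45.3 FPKM, while the MYC antagonists Mxd1 and Mxd4 rose, from 0.738 to 1.63 FPKM and from 2.09 to 9.31 FPKM. Of 18 DUSP, Sprouty and ERK feedback genes 3 fell and none rose: Dusp5, a nuclear ERK phosphatase, from 12.6 to 4.45 FPKM, Dusp10 from 6.64 to 2.36 FPKM and Etv4 from 21.8 to 10.6 FPKM. Dusp6, the cytosolic ERK phosphatase, had 7.7 FPKM at 300 and 10.3 FPKM at 600 mosmol/kg in the knockout and 10.2 and 58.7 FPKM in Scr cells, and so differed in Scr cells far more than in Nfat5-KO cells. Of 8 genes of the IGF axis 2 rose. Igfbp7, a secreted IGF-binding protein, had 9.01 FPKM at 300 and 47.4 FPKM at 600 mosmol/kg in the knockout and 66.5 and 391 FPKM in Scr cells, a rise in each genotype from different starting levels, and Irs2, an insulin receptor substrate, rose from 15.5 to 32 FPKM. Of 23 genes of TGF-beta, BMP and ID Tgfbr3, a TGF-beta co-receptor, rose from 1.16 to 3.4 FPKM, and Smad1 and Inhba fell, from 4.44 to 1.79 FPKM and from 0.583 to 0.137 FPKM. Of 11 EGF ligands and ERBB receptors the ligand Ereg fell from 1.64 to 0.384 FPKM, and of 11 genes of gp130 and STAT3 signalling the receptor Cntfr fell from 1.15 to 0.0914 FPKM.

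Chemokines and other NF-kB targets were lower in Nfat5-KO cells. Of 21 NF-kB targets and chemokines compared 6 fell and 1 rose, with a median of -0.54. Over the 20 genes compared in both genotypes the medians were -0.51 in the knockout and 0.04 in Scr cells, and the Nfat5-KO ratio was below the Scr ratio for 18 of them. Cxcl5, a neutrophil chemokine, had 429 FPKM at 300 and 213 FPKM at 600 mosmol/kg in the knockout and 428 and 549.97 FPKM in Scr cells, and Ccl20, a chemokine for lymphocytes, 28.9 FPKM at 300 and 8.86 FPKM at 600 mosmol/kg in the knockout and 20.7 and 30.6 FPKM in Scr cells. Both were lowest in Nfat5-KO_600. Cxcl1 fell from 20.7 to 5.31 FPKM, Cxcl2 from 11.3 to 3.41 FPKM, Il1a, an alarm cytokine, from 0.539 to 0.0759 FPKM, and Tnfaip3, a brake on NF-kB, from 4.44 to 1.69 FPKM. Cxcl10, an interferon-induced chemokine, rose from 3.04 to 7.67 FPKM.

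Of 25 interferon response and MHC class I genes 4 rose and none fell in Nfat5-KO cells, with a median of 0.39, beside 0.76 for the same 25 genes in Scr cells. In Scr cells 14 of 29 compared rose. The 4 were Ifit1, from 1.69 to 6.51 FPKM, Ifit3, from 2.01 to 7.99 FPKM, Rsad2, from 1.03 to 3.98 FPKM, all antiviral proteins, and the interferon regulatory factor Irf7, from 0.372 to 1.29 FPKM. The Nfat5-KO ratio was below the Scr ratio for 21 of 25 of these genes. Of 8 prostaglandin genes 1 rose, Slco2a1, the prostaglandin transporter, from 0.799 to 3.64 FPKM. Ptgs2, cyclooxygenase 2, had 23.4 FPKM at 300 and 15 FPKM at 600 mosmol/kg in the knockout and 6.41 and 13.7 FPKM in Scr cells.

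Of 16 circadian clock genes 1 fell and none rose in Nfat5-KO cells, and the Nfat5-KO ratio was above the Scr ratio for 9 and below it for 7. Some members, picked after their values were seen, had ratios above 0 in the knockout and below 0 in Scr cells. Nr1d2, a clock repressor, had a log2 ratio of 0.89 in the knockout and -0.34 in Scr cells, Per2, a core period gene, 0.75 and -0.53, Dbp, an output transcription factor, 0.62 and -0.72, and Tef, its relative, 0.68 and -0.20. The median of the list was 0.04 in the knockout and -0.28 in Scr cells. Of 9 genes of the NFAT family and calcineurin none changed 2-fold.

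**Figure D4:**
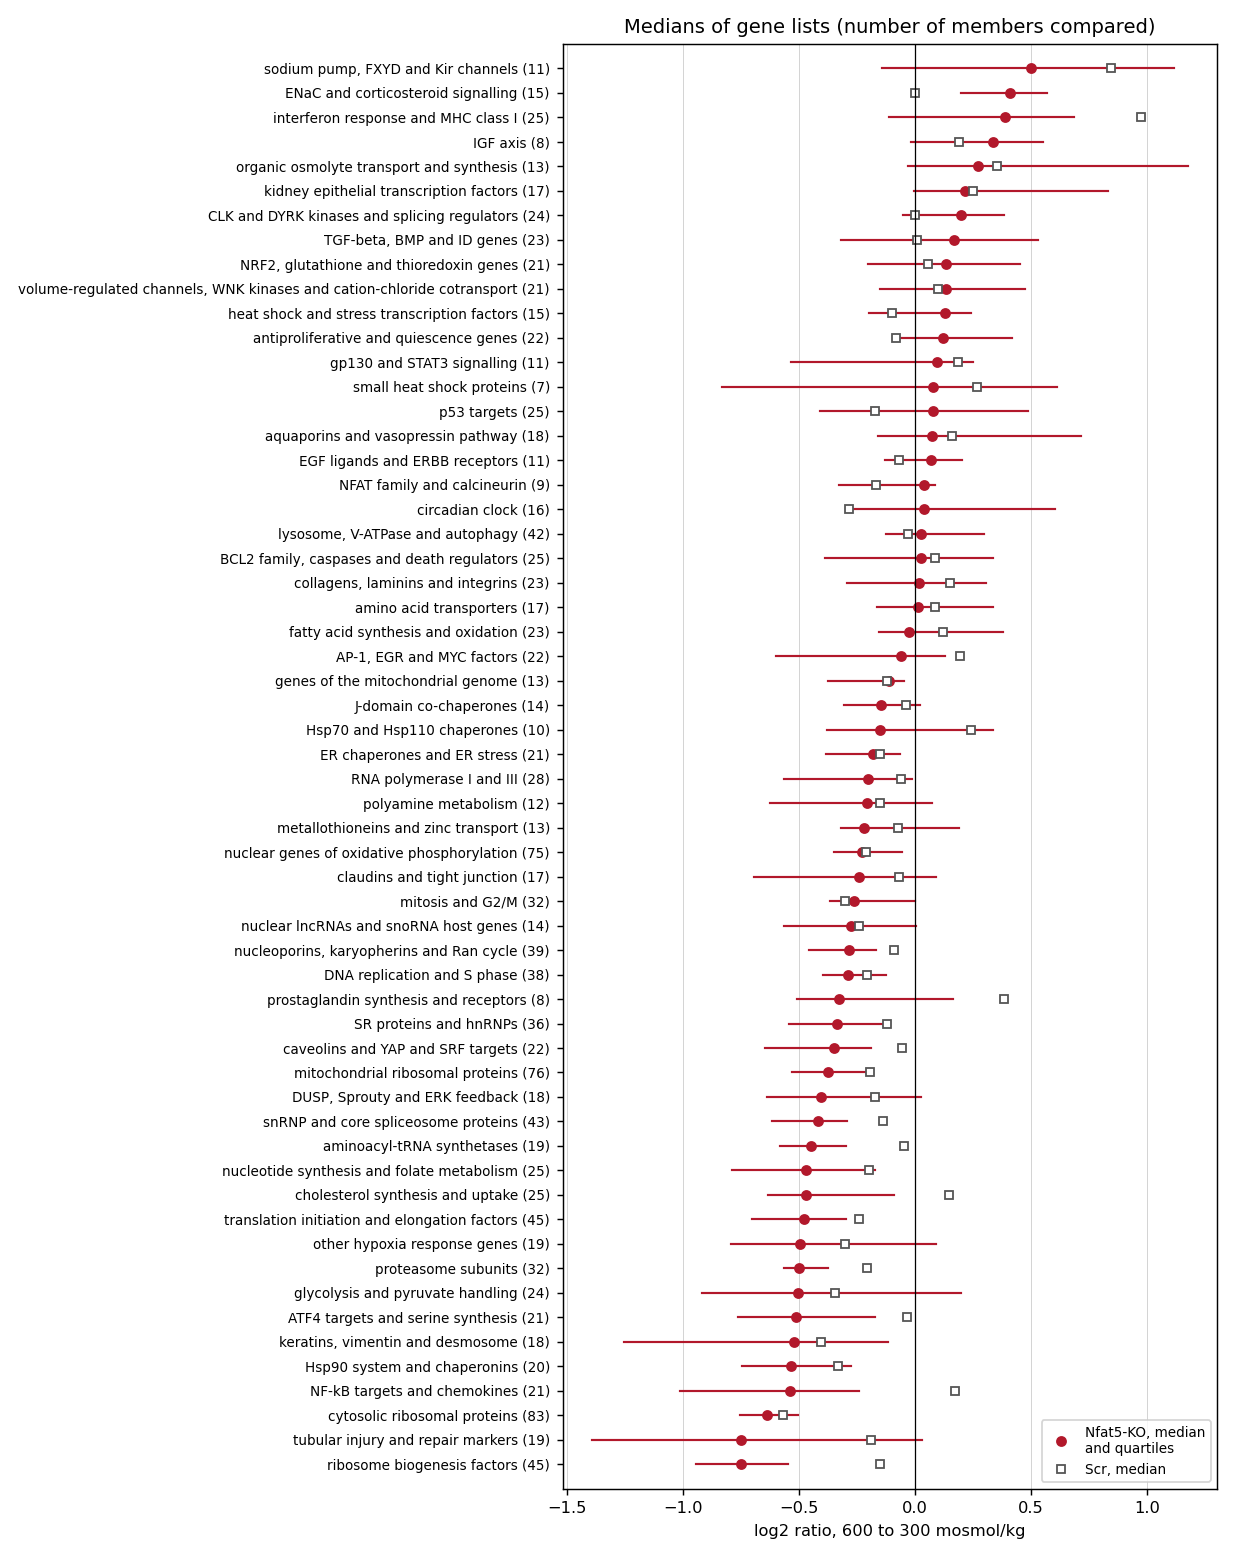
Median log2 ratio of 600 to 300 mosmol/kg for lists of genes, over the genes compared in each genotype, with the number of members compared in Nfat5-KO cells in brackets, red circles with lines from the lower to the upper quartile of the members for Nfat5-KO and grey squares for Scr. Ribosome biogenesis, injury markers, cytosolic ribosomal proteins and chemokines lie at the bottom in red. Their grey squares lie further to the right, but that of the ribosomal proteins (-0.57) is close to the red circle (-0.64). The sodium pump and ENaC lists lie at the top, the former with a median of 0.08 in red when its genes must average 1 FPKM or more.

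The knockout response was then set beside that of Scr cells over 12497 genes with at least 0.5 FPKM in each genotype. Of these genes 639 rose in the knockout (5.11%) and 489 in Scr cells (3.91%), and 259 rose in both, which is 40.5% of the first number, 53% of the second and 2.07% of the genes. A lower level gave 491 genes in the knockout (3.93%) and 307 in Scr cells (2.46%), and 153 fell in both, which is 31.2%, 49.8% and 1.22%. Of the 639 genes, 554 were also higher in Scr cells and 85 lower, with a median log2 ratio of 1.35 in the knockout and 0.80 in Scr cells. Of the 491 genes, 445 were also lower in Scr cells and 46 were higher, with medians of -1.23 and -0.69. Genes chosen for their ratio in Nfat5-KO cells have the larger ratio there through that choice, and for the 489 and 307 genes chosen in Scr cells the medians were 1.45 and -1.34 in Scr and 1.05 and -0.99 in Nfat5-KO cells.

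Among genes with at least 5 FPKM that rose in both genotypes were Cdh16, kidney-specific cadherin, with 29.7 FPKM at 300 and 129 FPKM at 600 mosmol/kg in the knockout and 33.5 and 186 FPKM in Scr cells, and Fam129b, with 32.6 FPKM at 300 and 190.2 FPKM at 600 mosmol/kg in the knockout and 45.3 and 184 FPKM in Scr cells. Both moved between like levels in the genotypes. Tmem27, an amino acid transport partner, fell in both, with 1244 FPKM at 300 and 306 FPKM at 600 mosmol/kg in the knockout and 1114 and 232 FPKM in Scr cells. These 3 genes show large responses that ran in the knockout at about the size seen in Scr cells.

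Opposite changes were few. Past 2-fold in each genotype, 13 genes rose in the knockout and fell in Scr cells and 5 did the reverse. Ephx1, an epoxide hydrolase, had 6.98 FPKM at 300 and 14.9 FPKM at 600 mosmol/kg in the knockout and 7.74 and 3.47 FPKM in Scr cells, and Serpinb6b, a protease inhibitor, 4.85 FPKM at 300 and 1.67 FPKM at 600 mosmol/kg in the knockout and 3.27 and 6.66 FPKM in Scr cells. Cbs and Sord, described above, were among the 13, as were Efhd1, a mitochondrial calcium-binding protein, which went from 1.03 to 2.44 FPKM in the knockout and from 1.45 to 0.508 FPKM in Scr cells, and Krt4, a keratin, from 0.884 to 1.92 FPKM and from 2.45 to 0.4 FPKM. Several of the others were small RNA genes or stayed below 1 FPKM in every group.

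Among genes with at least 5 FPKM in the higher group, 14 rose in Nfat5-KO cells while their level was lower at 600 mosmol/kg in Scr cells. Besides Cbs, Gstt1, Trp53inp1 and Ephx1 these included Clmn, an actin-binding membrane protein, from 4.17 to 16.5 FPKM, Pdxk, pyridoxal kinase, from 2.63 to 7.48 FPKM, Rnase4, a secreted ribonuclease, from 4.13 to 11.6 FPKM, and Trib1, a pseudokinase, from 6.25 to 14.9 FPKM. In the other direction 18 genes fell in the knockout and were higher in Scr cells. Serpinb9, an inhibitor of granzyme B, had 19.5 FPKM at 300 and 4.7 FPKM at 600 mosmol/kg in the knockout and 6.72 and 12.5 FPKM in Scr cells, and Adamts1, a matrix protease, fell from 55.5 to 19.5 FPKM, and its Scr level went from 56 to 73.8 FPKM. Edn1, endothelin 1, which lowers sodium uptake in the collecting duct, had 7.42 FPKM at 300 and 2.85 FPKM at 600 mosmol/kg in the knockout and 10.5 and 11.4 FPKM in Scr cells. Without replicate values, none of these differences between the genotypes was tested.

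**Figure D5:**
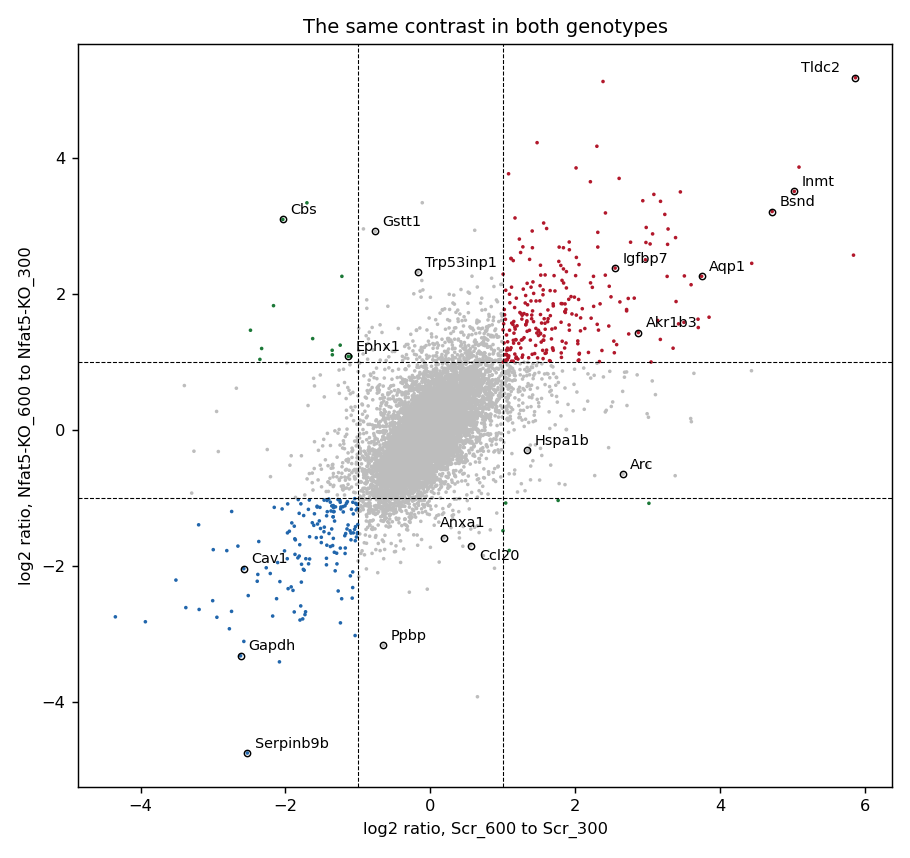
Log2 ratio of Nfat5-KO_600 to Nfat5-KO_300 (vertical axis) against that of Scr_600 to Scr_300 (horizontal axis) for 12497 genes, 1 point per gene, with dashed lines at 2-fold, 259 genes past 2-fold upward in both in red, 153 downward in both in blue and 18 in opposite directions in green. Tldc2, Inmt and Bsnd lie at the upper right, Serpinb9b and Gapdh at the lower left, and Cbs at the upper left.

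Features that the ratio did not use were set beside the changes. By GENCODE M21 type, the 818 processed pseudogenes had a median log2 ratio of -0.43, with 31 that rose and 82 that fell. Many processed pseudogenes are copies of ribosomal protein genes and share reads with them. The 253 lincRNA and 232 antisense genes had medians of 0.32 and 0.41, with 43 and 48 that rose and 18 and 9 that fell. Most were at low levels, with median means of 1.06 and 0.784 FPKM. The shares that rose, 17% and 20.7%, lay near the 19.6% of all genes with a mean below 1 FPKM. The strand setting of the counting is not given in the sources used here, so that reads of antisense genes and their partners cannot be told apart. Among protein-coding genes the exon length had a median of 3909 bases in those that rose, 2885 in those that fell and 4440.5 in all, and the GC content a median of 54.0%, 49.9% and 50.4%. Their median level was 1.91 FPKM in those that rose, 5.13 FPKM in those that fell and 7.49 FPKM in all. When these genes were put in 5 groups of equal size by GC content, 2.23% rose in the lowest group and 8.45% in the highest. The median log2 ratio went from -0.10 in the lowest to 0.12 in the highest group in the knockout. In Scr cells it went from -0.19 to 0.15, so that this pattern was not particular to the knockout.

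Promoters of 8911 of the 12982 genes were found in the RefSeq table, each from 250 bases before to 50 after the start, and searched on both strands. The AP-1 element TGANTCA was in 10.1% of 277 promoters of genes that fell, 5.94% of 421 of genes that rose and 4.84% of all compared, and in 7.81% of all 32851 promoters in the table. Of 72 promoters of genes that fell in both genotypes 18.1% held it, Sprr2e among them. TATAAA was in 14.8% of promoters of genes that fell, 9.03% of those that rose and 6.4% of all compared, and in 13.6% of the table. For genes that fell and that rose in both genotypes its shares were 15.3% and 10.6%. The tonicity-responsive core TGGAAA was in 16.6% of promoters of genes that rose, 18.8% of those that fell and 15.8% of all compared, and in 21.4% of the table, and in 22% of 123 promoters of genes that rose in both genotypes, Tldc2 among them. The heat shock core GAANNTTC was in 4.51%, 7.58% and 5.48%, and in 7.86% of the table. For genes that rose and that fell in both genotypes its shares were 1.63% and 11.1%. Other elements were searched and are not given here. Promoters of the genes that rose and of those that fell had a median of 16 CpG dinucleotides each, beside 21 in all compared. For genes that rose and that fell in both genotypes the medians were 11 and 9.5, so that the base composition of these promoters differed most. These shares are descriptions, and the elements differ in how often their letters occur by base composition alone.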

How the data were processed

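RNA-seq of 12 libraries was deposited by the authors as 1 table of FPKM values with 1 column for each of the 4 groups. Per the study's methods, low-quality and adapter reads were removed, and the rest were mapped to GRCm38 (mm10) with HISAT2 and counted per gene with HTSeq, and values were scaled by gene length and library size. Versions, the strand setting and the treatment of reads with several matches are not given in the sources used here. FPKM is relative to the mapped reads of a library, so that RNA per cell is not measured.

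The table has 54839 rows. Rows without a value (2436) and exact duplicates (311) were removed, 37 symbols whose rows differed were dropped, and 13 symbols in a spreadsheet's date form were kept as given, which left 52015 genes. From these, log2 ratios of (FPKM + 0.1) were computed for genes with at least 0.5 FPKM in 1 of the 2 groups compared, and a gene was counted as changed at 2-fold. Planned tests that need values per library could not be run. Types, lengths and positions came from GENCODE M21 (GRCm38), which 12837 of the 12982 genes matched by symbol, and promoters from RefSeq (GRCm38.p6).

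Named genes are the 15 highest and 15 lowest ratios among genes with at least 5 FPKM in the higher and 0.1 FPKM in the lower group, Nfat5, and of each of 63 lists the members past 2-fold and the 2 with the highest level. Genes named beside them, such as Slc5a3, Hspa4l, Scnn1a, Sgk1, Mvk, Dusp6, Nr1d2 and those of the comparison of the genotypes, were picked after their values were seen. Some items that the rule names are not reported here. The members and the lists were chosen with earlier results of these data known. Alternatives were pseudocounts of 1 and 0.01, no filter, a filter on the mean and a median-of-ratios factor. The steps were tested on simulated data. Python 3.11.15, numpy 2.4.6, pandas 2.3.3 and matplotlib 3.10.9 were used.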

Additional observations from a re-analysis of the deposited data

How the results depend on the processing

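The number of Nfat5-KO genes past 2-fold depended on the treatment of low values. The 812 genes that rose became 259 with a pseudocount of 1, 1422 with no filter and 467 with a mean of at least 1 FPKM, and the 534 that fell became 230 with a pseudocount of 1. The 259 that rose in both genotypes became 89, 414 and 150 under these 3 settings, and the 153 that fell in both became 61 with a pseudocount of 1 and 93 with a mean of at least 1 FPKM. Of 252 named genes with a ratio, 35 were under 2-fold with a pseudocount of 1, among them Sord, Pnpla6, Mdm2, Itga1, Irs2, Krt14, Pfkp, Tpi1, Tpm1, Rrm2b, Hspb11, Akap7, Pde4b, Lrp2, Irf7, Sim1, Mxd1, Ankrd37 and Etv4. With a median-of-ratios factor (the median ratio was 0.961) 15 were under 2-fold, among them Ccnd1, Cxcl5, Tpi1, Slc16a1, Rpl36, Tpm1, Ier3, Etv4 and Pde4b, and Nfat5 passed it with 1.02. These settings do not check the direction of a named gene past 2-fold. A pseudocount cannot reverse a ratio, and the factor moved the log2 ratios by at most 0.06. Of the 63 lists 38 had a median below 0, and 36 to 38 under the alternatives. Ribosome biogenesis had 9 genes that fell, 6 with a pseudocount of 1 and 5 with the factor. With a pseudocount of 1 the osmolyte genes that rose went from 5 to 3, those of collagens, laminins and integrins from 4 to 2, and those of the sodium pump list from 3 to 0. With a mean of at least 1 FPKM the last was 0 as well and collagens, laminins and integrins had 2, and the median of the Hsp70 and Hsp110 list went from -0.15 to -0.27 and was -0.10 with the factor. The median of the sodium pump list was 0.11 with no filter. The cause of these differences was not tested. No paired analysis was possible because the deposited values hold 1 value per group and none per library, and for the same reason no library could be left out. Depth is unknown, so that for low genes the counting error cannot be given.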

Other observations

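Families recognised by the start of their symbols were looked at after their values were seen, and the counts below are descriptions of the members that passed the filter on low values. All 7 Sprr genes compared, of 17 in the values, fell in the knockout (median log2 ratio -2.63). Of the 7, Sprr2h, Sprr2b and Sprr2k passed the filter through Nfat5-KO_300 alone. The Sprr genes code for small proline-rich proteins of the cornified envelope and have closely related copies. Sprr1a fell from 106 to 39.9 FPKM and Sprr2g from 139 to 48.2 FPKM in Nfat5-KO cells, and their Scr log2 ratios were -1.88 and -1.01. All 5 Serpinb genes compared, of 28, fell as well, and they code for intracellular protease inhibitors. Among them Serpinb9b passed the filter through Nfat5-KO_300 alone. Serpinb5, maspin, fell from 4.14 to 0.805 FPKM, while in Scr cells 3 of the 5 fell and 1 rose. Of 10 S100a genes compared 5 fell, among them S100a14, from 84.3 to 27.8 FPKM, and S100a9, which passed the filter through Nfat5-KO_300 alone. S100a6, the second most abundant of the 10, went from 562 to 444 FPKM.

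Histone genes went the other way. Of 22 compared, of 69 in the values, 13 rose and none fell in Nfat5-KO cells, with a median of 1.47. In Scr cells 17 of 25 rose with a median of 1.17. Of the 13, Hist2h4, Hist3h2bb-ps, Hist1h1d, Hist1h2ac, Hist1h4m, Hist1h2bb, Hist1h4j and Hist1h4k passed the filter through Nfat5-KO_600 alone. The count and the median in the knockout depend on these genes, which were below 0.5 FPKM in Nfat5-KO_300. Hist2h2be rose from 3.55 to 12.2 FPKM, Hist3h2a from 2.34 to 8.83 FPKM and Hist3h2ba from 1.49 to 8.14 FPKM. The abundant Hist1h2bc went from 197 to 159 FPKM, and the linker histone Hist1h1c from 81.5 to 101 FPKM. Most histone transcripts lack a poly(A) tail and many copies share sequence, and the part of either in these values was not tested. Of 13 glutathione S-transferase genes compared, taken by symbols that start with Gst, 5 rose and none fell in Nfat5-KO cells, with a median of 0.88. Genes of this family under other symbols were not counted. In Scr cells 1 rose and 1 fell of 12. Of the 5, Gstm3 and Gstm7 passed the filter through Nfat5-KO_600 alone.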
